A study of Mus musculus with 12 samples.

Results

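Wild-type DN3 thymocytes were profiled on 3 of the 12 arrays of the series, and the 19938 genes measured on them were ranked by their mean signal. DN3 is the third CD4-, CD8- (double-negative) stage of T cell development in the mouse thymus. The arrays were those titled as wild-type DN3 thymocytes, and a gene was represented by its brightest row of the array. The cells came from wild-type mice of strain C57/BL6 aged 8 to 12 weeks and were sorted directly into Trizol reagent. The remaining arrays held 3 samples of DN3 thymocytes from TCF-1 KO mice of the same strain and age, and 6 T cell lymphomas sorted from the thymus of TCF-1 KO mice aged 12 to 40 weeks. TCF-1, the factor deleted in those 9 samples, is a T-lineage transcription factor. Sources used here give neither the kind of allele, nor the markers of the sort gate, nor whether a sample held 1 animal or a pool. The labels call the replicates biological without saying how the animals were related. A p-value here sets a difference between groups against the spread among these samples.

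At the DN3 stage, thymocytes receive Notch signals from the thymic stroma, rearrange the T cell receptor beta locus with the RAG recombinase, and test the product as a pre-TCR together with the invariant pre-T alpha chain and the CD3 subunits. Cells that pass this checkpoint divide and move on towards the CD4+ CD8+ double-positive (DP) stage. The interleukin 2 receptor alpha chain (CD25) is high on DN3 cells and CD44 is low, which together set the stage apart by flow cytometry.

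Levels are mean log2 signals over the 3 wild-type arrays, with ± for the SD over these arrays, and lists of 3 values follow the replicate order 1, 2, 3. The genes ranged from 3.21 to 12.17, with a median of 5.43. Sensory receptor genes (olfactory, vomeronasal and taste receptors), which thymocytes are not known to use, gave an internal reference for rows without RNA. Their 1224 members had a median of 4.24, and the 95th percentile of their levels, 5.33, was taken as the limit of the floor. Genes at or above the 90th percentile of the ranking, 7.74, are called bright, and those between the limits intermediate. By these limits 1994 genes were bright, 8651 (43.4%) intermediate and 9293 (46.6%) at the floor. The signal of a row depends on its probes as well as on the RNA, so the classes rank array signals and a higher class does not show more molecules. The floor is also not sharp: by its definition 62 sensory receptor genes lay above it, up to 7.86 for Olfr1174, so a level in the lower part of the intermediate class does not by itself show expression. The 5 genes just outside the floor (Prap1, Dmbx1, Lyplal1, Six5 and Krt75) and 5 just inside (Zfp975, Kcnk13, Ank1, Nav2 and Mir500) all stood at 5.33. Likewise Ppil4, Zfp329, Psme2, Etv6 and Glyr1 just above the bright limit stood at 7.74, and Prep, Ndc80, Sec24c, Esd and Zc3h18 just below it at 7.73 to 7.74.

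**Figure D1:**
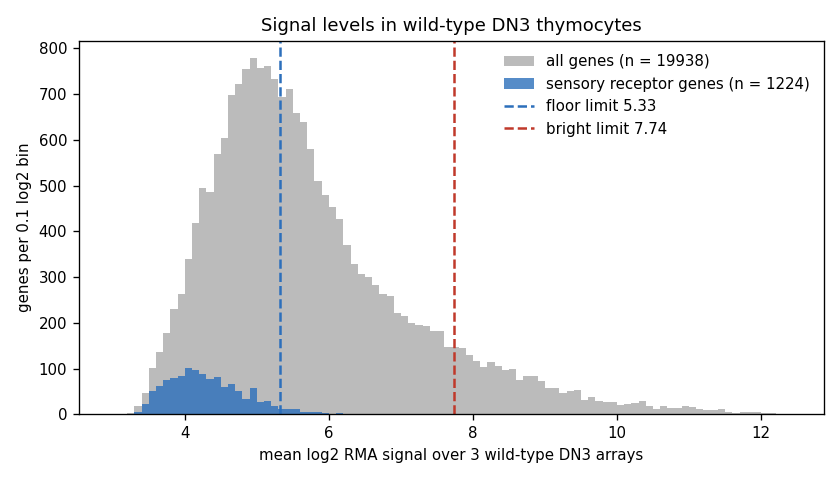
Histogram of the mean log2 signal of 19938 genes over the 3 wild-type DN3 arrays, with the 1224 sensory receptor genes in blue, in bins of 0.1 log2 units; dashed lines mark the floor limit (5.33) and the bright limit (7.74). The sensory receptor genes crowd below 5.33, while the ranking has a long tail of bright genes up to 12.17.

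The ranking was alike on the 3 arrays. A gene's SD over the arrays had a median of 0.120, and 17364 genes (87.1%) fell in the same class on every array. That share was 89.3% for bright, 82.4% for intermediate and 91.0% for floor genes. The highest and lowest array differed by less than 0.5 in 18357 genes (92.1%) and by 1 or more in 76 genes (0.381%). Across genes, which are not independent replicates, the arrays correlated at 0.986 to 0.989. The arrays were also divided into 2 sets that the labels do not name. Among the 12146 rows without a gene symbol, those that split the arrays with a gap of 1 or more were sought. The most frequent split had 35 rows and the next 14. Over the 35 rows the first replicate of either DN3 group and lymphomas 1 and 2 had medians between 5.88 and 6.44. The other 8 arrays had medians between 8.32 and 9.03. The rows were chosen for this gap, so these medians do not test whether the sets exist. Wild-type replicate 1 thus stood in the smaller set and replicates 2 and 3 in the larger. Xist, the RNA of the inactive X chromosome, stood at 10.58, 10.54 and 10.50 on the wild-type arrays, and the Y-linked genes Uty (4.15), Kdm5d (4.44), Eif2s3y (3.63) and Zfy1 (3.79) lay within the floor on all of them.

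Of the 5 genes taken as DN3 markers, 4 were bright and 1 was intermediate. Il2ra, which encodes CD25, stood at 10.73, 10.77 and 10.71, with less spread than most genes. Dntt, the terminal transferase that adds untemplated bases at V(D)J junctions, stood at 10.76, 11.07 and 10.96. Rag1, the catalytic subunit of the RAG recombinase, stood at 10.30, 10.34 and 10.53. All 3 were among the brightest genes of the array, and every array put them above the bright limit. Notch1, the receptor that drives T-lineage commitment, was bright at a lower level, 8.21, 8.59 and 8.39. Ptcra, which encodes the pre-T alpha chain, stood at 7.08, 7.07 and 7.18, intermediate on every array. Levels of different rows are not compared as RNA amounts, for Ptcra as for the others.

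The promoters of these 5 genes are shown for their CpG content, with 1 to 3 CpG in all but Notch1. That of Notch1 held 16 CpG, with a ratio of observed to expected CpG of 0.588. The ratios of all 5 lay under the median of bright genes, 0.824. The sequences are RefSeq's, build GRCm38.p6, and cover the 250 bases before the first listed start site of each gene, on the gene's strand. Il2ra lies at chr2:11642542-11642791 (+ strand), Ptcra at chr17:46763713-46763962 (- strand), Rag1 at chr2:101649533-101649782 (- strand), Dntt at chr19:41029025-41029274 (+ strand) and Notch1 at chr2:26503823-26504072 (- strand). Capitals mark letters that match one of the motifs searched, on either strand. Core promoter motifs were the TATA box, searched as TATAAA, and the letters CCAAT that the factor NF-Y is known to bind. Motifs of broadly used factors were CCGGAAGT for the ETS family, the Sp1 letters GGGCGG, the cyclic AMP response element TGACGTCA and AAGATGGC for the factor YY1. Motifs of factors known from the T lineage were TGTGGTT for the Runx family, with AGATAA searched for the GATA family, CTTTGAT for factors of the TCF and LEF family, and the palindrome CAGCTG, an E box bound by E proteins.
Il2ra: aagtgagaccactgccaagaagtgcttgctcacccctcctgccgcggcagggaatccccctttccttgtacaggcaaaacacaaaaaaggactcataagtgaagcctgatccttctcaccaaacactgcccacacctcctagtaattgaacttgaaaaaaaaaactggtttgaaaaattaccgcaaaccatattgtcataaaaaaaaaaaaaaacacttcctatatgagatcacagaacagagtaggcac
Ptcra: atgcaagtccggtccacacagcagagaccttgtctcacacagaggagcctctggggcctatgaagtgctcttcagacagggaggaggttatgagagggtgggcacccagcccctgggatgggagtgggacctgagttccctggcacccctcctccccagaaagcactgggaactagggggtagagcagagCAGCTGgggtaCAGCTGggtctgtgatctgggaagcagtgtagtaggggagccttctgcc
Rag1: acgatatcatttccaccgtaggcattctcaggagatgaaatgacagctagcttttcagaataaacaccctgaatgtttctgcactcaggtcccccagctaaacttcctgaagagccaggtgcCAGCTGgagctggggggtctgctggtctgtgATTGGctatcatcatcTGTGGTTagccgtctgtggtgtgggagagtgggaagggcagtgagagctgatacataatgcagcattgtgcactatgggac
Dntt: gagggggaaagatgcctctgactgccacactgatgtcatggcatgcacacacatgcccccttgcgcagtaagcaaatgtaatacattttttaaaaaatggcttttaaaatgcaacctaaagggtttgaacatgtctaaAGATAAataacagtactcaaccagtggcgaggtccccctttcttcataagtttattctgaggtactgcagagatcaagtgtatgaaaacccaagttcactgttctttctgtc
Notch1: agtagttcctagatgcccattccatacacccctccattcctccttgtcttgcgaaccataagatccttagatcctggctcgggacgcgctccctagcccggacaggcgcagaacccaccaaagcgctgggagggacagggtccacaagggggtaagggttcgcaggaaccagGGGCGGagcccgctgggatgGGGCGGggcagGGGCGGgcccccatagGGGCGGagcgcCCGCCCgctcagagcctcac
Il2ra held none of these letters. Ptcra held CAGCTG at 2 places, starting 60 and 49 bases before the start, which 12.0% of all promoters held at least once. Rag1 held CAGCTG, the reverse of CCAAT and a TGTGGTT, and Dntt an AGATAA. Notch1 held 5 GGGCGG matches and 16 CpG dinucleotides, against 3, 1, 3 and 2 CpG in Il2ra, Ptcra, Rag1 and Dntt. A match describes the letters only; no binding was measured here.

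**Figure D2:**
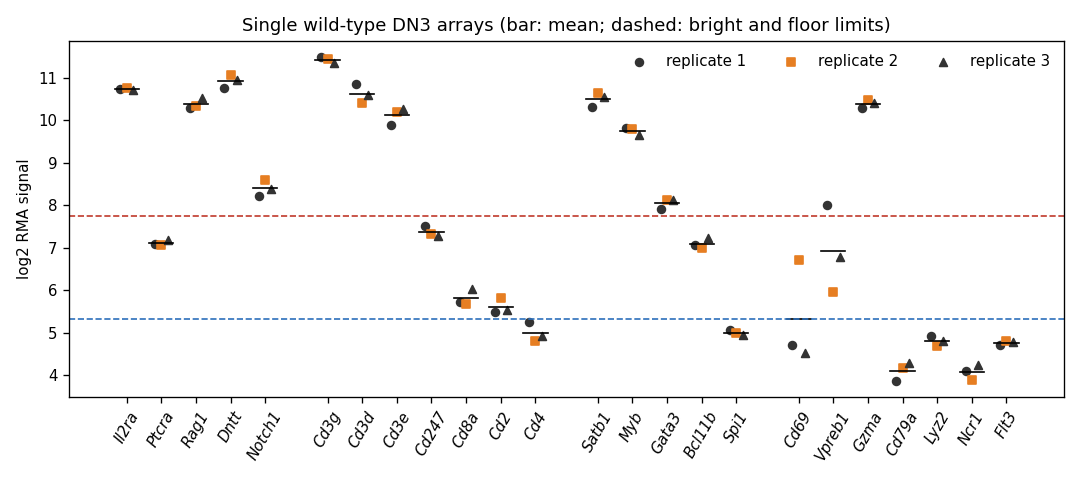
Log2 signals of selected genes on the single wild-type DN3 arrays (circles, replicate 1; squares, replicate 2; triangles, replicate 3), with bars at the means and dashed lines at the bright (7.74) and floor (5.33) limits. Most genes differ little between arrays, while Cd69 is high on replicate 2 and Vpreb1 on replicate 1.

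The brightest genes were those of protein synthesis. Eef1a1, a translation elongation factor, led the ranking at 12.13, 12.15 and 12.23. It was followed by Baiap2l1, which encodes an actin-bundling adaptor (12.15 ± 0.14), by Rn7sk, the RNA that holds the elongation factor P-TEFb inactive (12.06 ± 0.07), and by Rps6 (12.01 ± 0.09). Ribosomal protein genes filled most of the other top places (Rps4x, Rps20, Rps12, Rplp0, Rps28, Rpl23, Rps29, Rps14, Rps15, Rpl23a, Rpl4, Rpl37a and Rpl28). The splicing factor gene Srsf3 (11.91), the snoRNA host Gas5 (11.77) and Tpt1 (11.75) completed the 20 brightest. Of the 100 brightest genes, 42 encode ribosomal proteins. Over the array, 54 of the 63 genes with such a symbol were bright and 3 were at the floor. These genes have many near-identical pseudogene copies, and their signals are uncertain to the extent that rows share probes with copies. The brightest gene of the T-lineage lists was Cd3g, at 11.49, 11.44 and 11.36, at rank 33.

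Of the 172 genes listed for the T lineage and its receptors, 161 had a row of their own, of which 48 were bright, 85 intermediate and 28 at the floor. In the CD3 and pre-TCR list of 13 measured genes, the CD3 gamma, delta and epsilon genes were the 3 that were bright. Cd3d stood at 10.85, 10.40 and 10.59, and Cd3e at 9.89, 10.20 and 10.26. The zeta chain gene Cd247 (7.37 ± 0.13), the adaptor gene Trat1 (7.44 ± 0.26) and the costimulator gene Cd28 (7.35 ± 0.34) stood just under the bright limit. Coreceptor genes were dim. Cd4 stood at 5.26, 4.80 and 4.92, at the floor on all arrays. Cd8a (5.71, 5.67 and 6.03) and Cd8b1 (6.20, 5.80 and 5.95) stood in the lower intermediate range, where some sensory receptor genes also lie. Cd2, the adhesion receptor gene of later thymocytes and T cells, stood at 5.49, 5.81 and 5.53, and the signal regulators Cd5 and Cd6 at 6.45 and 5.90.

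The promoters of 2 CD3 genes and 1 ribosomal protein gene show how bright genes can differ in their letters. Cd3g (chr9:44980432-44980681, - strand) and Cd3d (chr9:44981536-44981785, + strand) are neighbours read in opposite directions, and Rps6 lies at chr4:86857368-86857617 (- strand). Capitals are as above.
Cd3g: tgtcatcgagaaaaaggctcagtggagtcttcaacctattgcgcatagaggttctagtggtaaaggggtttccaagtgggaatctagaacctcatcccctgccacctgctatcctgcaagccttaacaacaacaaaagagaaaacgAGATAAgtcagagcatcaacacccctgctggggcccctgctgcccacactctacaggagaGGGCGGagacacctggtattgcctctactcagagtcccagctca
Cd3d: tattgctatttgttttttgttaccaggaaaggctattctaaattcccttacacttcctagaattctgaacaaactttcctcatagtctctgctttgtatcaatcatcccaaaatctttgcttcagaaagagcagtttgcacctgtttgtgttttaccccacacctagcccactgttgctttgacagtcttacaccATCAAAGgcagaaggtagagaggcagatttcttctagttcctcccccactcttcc
Rps6: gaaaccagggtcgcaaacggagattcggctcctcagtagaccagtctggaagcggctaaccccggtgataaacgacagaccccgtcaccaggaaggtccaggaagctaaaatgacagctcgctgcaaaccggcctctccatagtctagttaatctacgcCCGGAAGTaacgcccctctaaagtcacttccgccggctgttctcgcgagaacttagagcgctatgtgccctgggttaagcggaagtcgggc
Cd3d held no CpG and 1 TCF/LEF match, ATCAAAG, on the reverse strand, a motif found in 2.9% of all promoters. Cd3g held 4 CpG, an AGATAA and a GGGCGG. Rps6 held 19 CpG and 1 CCGGAAGT, which 4.1% of all promoters held.

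Among 29 measured transcription factor genes of the lineage, 10 were bright. Satb1, a chromatin organiser of thymocytes, was the brightest at 10.32, 10.65 and 10.55, followed by Myb at 9.82, 9.79 and 9.66. The E protein gene Tcf12 (9.44 ± 0.15), Runx1 (8.93 ± 0.08), the Ikaros family genes Ikzf2 (8.85 ± 0.20) and Ikzf1 (8.74 ± 0.15), Lef1 (8.81 ± 0.13), Tox (8.63 ± 0.24) and Ets1 (8.25 ± 0.14) were bright on every array. Gata3, required for T-lineage commitment, was bright at 7.91, 8.12 and 8.12. Bcl11b, which closes off other fates at commitment, was intermediate at 7.07, 6.99 and 7.24. The floor held Spi1 (5.00 ± 0.06) and Hhex (4.75 ± 0.23), which act before commitment, the B-lineage gene Ebf1 (4.35 ± 0.09) and Zbtb7b (5.05 ± 0.14), the CD4-lineage factor ThPOK. Id2 (5.49 ± 0.18), Egr2 (5.48 ± 0.13) and Pax5 (5.56 ± 0.07) stood barely above it.

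Of 18 measured genes of the Notch pathway, 3 were bright, 13 intermediate and 2 at the floor. Besides Il2ra and Notch1, the bright member was Myc, the growth regulator and Notch target, at 10.02, 9.96 and 9.68. Rbpj, the DNA-binding partner of Notch, stood at 7.32, 7.76 and 7.70, and Notch3 at 6.61, 6.91 and 6.60. Among target genes Hes1 was the least even, at 7.36, 6.88 and 6.32, while Dtx1 stood at 6.66, 6.60 and 6.68. Of the other receptors, Notch2 (5.53 ± 0.08) and Notch4 (5.55 ± 0.13) were near the floor, and the modifier gene Lfng (4.97 ± 0.11) and the target Nrarp (5.32 ± 0.28) were within it.

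The recombination machinery held 8 bright genes of 14 measured, the largest bright share among the T-lineage lists. Hmgb2, a DNA-bending protein that assists RAG cleavage, stood at 11.02, 11.18 and 10.96. The end-joining genes Xrcc6 (9.33 ± 0.13), Lig4 (8.43 ± 0.06), Xrcc5 (8.12 ± 0.13) and Xrcc4 (7.84 ± 0.29) were also bright, with Xrcc4 above the limit on replicate 1 alone. Rag2, the partner of Rag1, stood at 6.82, 6.54 and 6.71 and was intermediate on every array. The junction polymerase genes Poll (5.05 ± 0.08) and Polm (4.89 ± 0.06) and the end-joining factor gene Nhej1 (5.15 ± 0.21) had floor levels.

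All 19 measured genes of proximal TCR signalling stood above the floor, and 9 were bright. Lat, the membrane adaptor, stood at 10.75, 10.42 and 10.45, and Ptprc, which encodes CD45, at 10.44, 10.51 and 10.41. Themis (9.41 ± 0.06), which tunes TCR signals, and the adaptor gene Lcp2 (8.88 ± 0.04) followed. The kinase genes Fyn (7.13 ± 0.11), Zap70 (6.23 ± 0.23) and Syk (6.06 ± 0.12) were intermediate, as were Malt1 (6.13 ± 0.08) and Bcl10 (6.06 ± 0.18).

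Of 29 cytokine receptor genes 7 were bright, 16 intermediate and 6 at the floor. Il7r, the receptor for the survival factor of early thymocytes, stood at 8.64, 8.76 and 8.72. Ifngr1 (9.48 ± 0.41), Ifnar2 (8.30 ± 0.13), Tgfbr1 (8.19 ± 0.18), Il17ra (7.83 ± 0.07) and Il6st (7.81 ± 0.13) were the other bright members after Il2ra. The beta chain gene of the interleukin 2 receptor, Il2rb, was at the floor at 4.98, 5.03 and 5.00. Kit, the stem cell factor receptor of earlier stages, stood at 6.01, 6.17 and 6.09, while Flt3 (4.76 ± 0.05), Csf1r (4.90 ± 0.07), Fas (4.45 ± 0.04) and Il18r1 (4.34 ± 0.03) were at the floor.

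Among 23 genes of migration and adhesion, Cd24a stood at 11.35, 11.30 and 11.03 and Thy1 at 10.76, 11.16 and 11.10, both surface proteins of thymocytes. Cxcr4, the receptor for the stromal chemokine CXCL12, was bright at 9.97, 10.12 and 10.08, as were the integrin genes Itga4 (9.66 ± 0.05) and Itgb1 (8.65 ± 0.10) and Selplg (8.54 ± 0.08). Cd44, low on DN3 cells by definition, was at the floor at 5.07, 5.18 and 5.08, together with S1pr1 (4.46 ± 0.09), which mature cells use to leave the thymus, Ccr2 (4.33 ± 0.16) and Ccr6 (4.91 ± 0.08). Of 20 costimulatory and inhibitory receptor genes, 3 were bright: Cd27 (8.53 ± 0.05), Cd48 (8.03 ± 0.20) and Ctla4 (7.55, 8.28 and 7.84). Havcr2 (4.41 ± 0.06), Cd226 (4.96 ± 0.16), Btla (5.00 ± 0.13) and Slamf1 (5.00 ± 0.11) were at the floor.

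Genes of the cell cycle were nearly all above the floor. None of 27 measured genes of S phase and none of 22 of G2 and mitosis was at the floor, and 13 and 10 of them were bright (3 and 4 with the bright limit at the 95th percentile of genes). Pcna, the sliding clamp of replication, stood at 11.08, 11.10 and 11.04, and Mcm6, a subunit of the replicative helicase, at 9.66, 9.75 and 9.72. The ribonucleotide reductase genes Rrm1 (9.08 ± 0.25) and Rrm2 (8.57 ± 0.11), the polymerase gene Pola1 (8.51 ± 0.03) and Prim1 (8.32 ± 0.06) came next. The origin licensing genes Orc1 (5.59 ± 0.05) and Cdt1 (5.53 ± 0.11) were the dimmest of S phase. Top2a, which untangles chromosomes, led the mitotic list at 9.93, 10.18 and 9.95, followed by Mki67 (8.86 ± 0.18), Ccnb2 (8.85 ± 0.09), Kif11 (8.75 ± 0.20) and Birc5 (8.59 ± 0.07). Bulk samples cannot tell a few cells with much of a transcript from many cells with little, so these levels give no share of dividing cells.

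Among 25 genes of cyclins, their kinases and inhibitors, the bright members were on the side of G1 progression as well as mitosis. Cdk6 stood at 10.24 ± 0.21, Cdk4 at 9.51, 9.44 and 9.46 and Ccnd2, their cyclin D2 partner, at 8.98, 8.90 and 8.98. Ccnd3, the cyclin D3 gene, was intermediate at 7.22, 7.19 and 7.29, and Ccnd1 stood at 5.51 ± 0.15. The inhibitor genes of the Cdkn2 family were at or just above the floor, with Cdkn2a at 5.23 ± 0.18, Cdkn2b at 5.26 ± 0.32, Cdkn2c at 4.89 ± 0.16 and Cdkn2d at 5.43 ± 0.06. Cdkn1b, which encodes p27, was the bright inhibitor, at 8.84, 8.45 and 7.74, one of the wider ranges of the lists. Of the p53 target genes 3 of 14 were bright, Trp53inp1 (8.54 ± 0.10), Btg2 (8.21 ± 0.17) and Ccng1 (7.98 ± 0.03), and 6 were at the floor, among them the death genes Bbc3 (5.27 ± 0.03), Perp (5.09 ± 0.04) and Fas. Of the Bcl-2 family the survival genes Bcl2 (8.26, 8.18 and 8.42) and Mcl1 (8.47, 8.46 and 7.84) were the 2 bright members of 14, and Bcl2l1, which encodes Bcl-xL, stood at 5.73 ± 0.23.

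The promoters of Top2a (chr11:99024190-99024439, - strand), Ccnb2 (chr9:70421555-70421804, - strand) and Cdk1 (chr10:69352913-69353162, - strand) are shown for the CCAAT letters that recur in the mitotic list; capitals are as above.
Top2a: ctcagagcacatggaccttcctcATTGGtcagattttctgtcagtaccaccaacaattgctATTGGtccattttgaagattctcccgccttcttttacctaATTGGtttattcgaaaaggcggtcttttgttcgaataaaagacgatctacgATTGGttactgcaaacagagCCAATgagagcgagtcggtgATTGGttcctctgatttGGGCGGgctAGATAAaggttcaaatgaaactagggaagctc
Ccnb2: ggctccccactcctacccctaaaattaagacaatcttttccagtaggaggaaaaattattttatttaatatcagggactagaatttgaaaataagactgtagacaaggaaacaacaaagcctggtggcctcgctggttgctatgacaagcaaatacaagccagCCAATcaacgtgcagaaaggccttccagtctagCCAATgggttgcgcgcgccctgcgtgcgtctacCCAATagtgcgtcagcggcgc
Cdk1: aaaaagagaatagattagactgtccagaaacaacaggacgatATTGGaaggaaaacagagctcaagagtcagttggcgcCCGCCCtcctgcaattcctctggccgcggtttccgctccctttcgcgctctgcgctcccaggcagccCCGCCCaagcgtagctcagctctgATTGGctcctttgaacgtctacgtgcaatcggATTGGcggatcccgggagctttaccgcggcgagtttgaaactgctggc
Of the 18 mitotic genes with a promoter in the table (81.8% of the list), 16 (88.9%) held CCAAT or ATTGG at least once, against 35.5% of all promoters of this length. In S phase 13 of 22 did (59.1%). The letters were not particular to cell cycle genes: 10 of 11 in cholesterol synthesis (90.9%) and 7 of 10 p53 targets (70%) held them. Top2a held 6 such matches, and Ccnb2 and Cdk1 3 each.

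In metabolism, most genes of the respiratory chain were bright, while the glucose transporter genes were dim. Of the 224 genes listed for metabolism and the ribosome, 196 were measured, of which 85 were bright, 79 intermediate and 32 at the floor. All 28 measured genes of the 40 listed for ribosomal proteins were bright. Of 27 genes of the respiratory chain and ATP synthase, 21 were bright, led by Cox6c (11.50, 11.31 and 11.32), Cox5b (10.78 ± 0.18), Atp5b (10.73 ± 0.07) and the cytochrome c gene Cycs (10.63 ± 0.17). The dimmest members were the forms made in muscle or lung, Cox6a2 (5.97 ± 0.06), Cox7a1 (5.32 ± 0.20) and Cox4i2 (5.33 ± 0.04). Of 23 genes of the TCA cycle 14 were bright (5 with the limit at the 95th percentile of genes) and none was at the floor, with Mdh2 (9.82 ± 0.04), Idh3g (9.59 ± 0.14) and the citrate synthase gene Cs (9.01 ± 0.02) at the top.

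Of 20 measured genes of glycolysis 6 were bright, 9 intermediate and 5 at the floor. Hk1, the hexokinase gene of most tissues, stood at 11.36, 10.99 and 10.63, while Hk2 stood at 5.24, 5.69 and 5.72 and Hk3 at 5.33 ± 0.06. Pgk1 (9.80 ± 0.10), Ldha (8.26 ± 0.16), Tpi1 (8.26 ± 0.12), Pkm (8.17 ± 0.12) and Aldoa (7.87 ± 0.09) were bright. The intermediate ones included Pgam1 (6.72 ± 0.03), its muscle form Pgam2 (7.05, 6.47 and 5.93), Pfkp (5.85 ± 0.25) and Pfkm (5.81 ± 0.16), and Pfkl (5.32 ± 0.14) was at the floor. The testis forms Pgk2 (4.38 ± 0.11) and Ldhc (4.51 ± 0.14), the neuronal Eno2 (5.08 ± 0.13) and the liver Pklr (5.19 ± 0.13) were at the floor. Of the glucose transporters, Slc2a1 was intermediate at 5.80, 5.89 and 5.98 and Slc2a3 was at the floor at 5.09, 5.11 and 5.31. Of 19 nutrient transporter genes 5 were bright, 9 intermediate and 5 at the floor. Bright amino acid carrier genes were Slc38a1 (9.48 ± 0.10), Slc38a2 (9.24 ± 0.16) and, at the limit, Slc7a5 (7.75 ± 0.18). The transferrin receptor gene Tfrc (8.66, 9.18 and 9.13) and the mitochondrial ADP/ATP carrier gene Slc25a5 (10.14 ± 0.08) were also bright. The amino acid carrier genes Slc1a5 (7.33 ± 0.10), Slc7a6 (7.21 ± 0.19), Slc3a2 (7.14 ± 0.39) and Slc7a1 (7.05 ± 0.11) were intermediate. Slc7a11 (4.29 ± 0.13) was at the floor.

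None of 24 genes of nucleotide synthesis was at the floor, and 9 were bright. The purine genes Paics (10.24, 10.44 and 10.61), Adss (9.53 ± 0.19) and Ppat (9.14 ± 0.20) led, and the pyrimidine genes Cad (6.85 ± 0.07) and Dhodh (6.00 ± 0.09) were intermediate. No gene of cholesterol synthesis was bright and 12 of 14 were intermediate, from Fdps (7.67 ± 0.15) and Hmgcs1 (7.41 ± 0.32) down to Mvk (5.70 ± 0.05). In fatty acid metabolism Fabp5 (8.19 ± 0.05) and Hadha (8.14 ± 0.06) were bright, Scd2 stood at 7.43 ± 0.21, and Scd1 (4.57 ± 0.06), Cd36 (4.24 ± 0.04) and the liver gene Fabp1 (3.73 ± 0.11) were at the floor. As a check on the floor, 13 of 16 enzymes of liver and other tissues lay within it, among them the albumin gene Alb (4.46 ± 0.09), and the exceptions were Ckm (6.29 ± 0.19), Ckb (5.78 ± 0.23) and Hpd (5.34 ± 0.05).

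**Figure D3:**
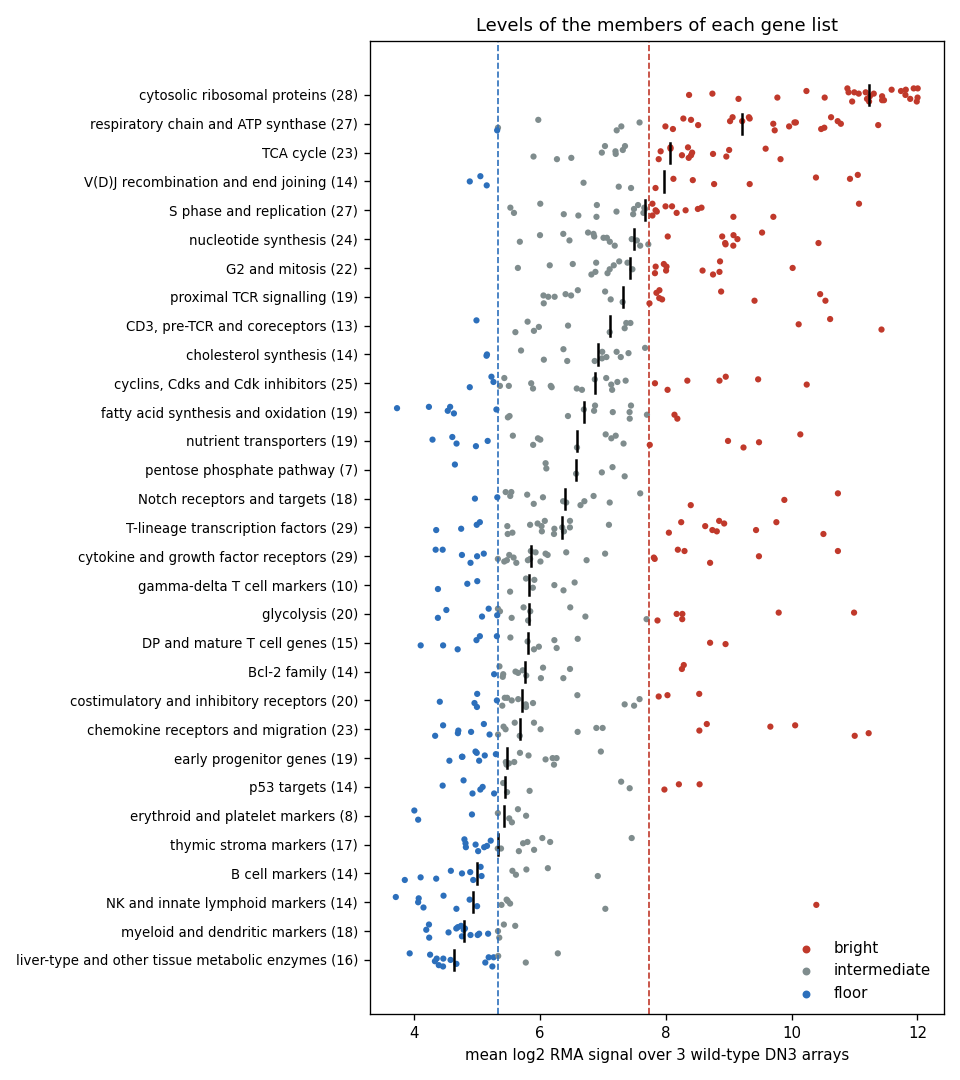
Mean log2 signal over the 3 wild-type DN3 arrays for the measured members of each list (number in brackets), coloured by class, with black bars at the list medians and dashed lines at the floor (5.33) and bright (7.74) limits. Ribosomal, respiratory and TCA cycle genes have the highest medians, while the lists of other cell types have medians from 4.80 (myeloid and dendritic) to 5.83 (gamma-delta T cells), on both sides of the floor limit.

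Markers of cells other than DN3 thymocytes stood at the floor about as often as genes in general, with large differences among the lists. Of 113 measured markers of other cell types and stages, 57 (50.4%) were at the floor, against 46.6% of all genes, 53 were intermediate and 3 (2.65%) were bright: Gzma, Ly6d and Il7r, the last also in the cytokine receptor list. Gzma, the granzyme A gene of cytotoxic cells, stood at 10.29, 10.49 and 10.40. In the NK cell list 8 of 14 genes were at the floor, among them Ncr1 (4.07 ± 0.18), Klrb1c (3.71 ± 0.06), Klrd1 (4.06 ± 0.18), Klrk1 (4.15 ± 0.01), Eomes (4.67 ± 0.07) and Gzmb (4.47 ± 0.10). The 5 intermediate ones were Nkg7, at 7.71, 6.77 and 6.65, Nfil3 (5.53 ± 0.35), Id2 (5.49 ± 0.18), the perforin gene Prf1 (5.47 ± 0.43) and Tbx21 (5.39 ± 0.09). Of 14 B cell markers 9 were at the floor, with Cd79a at 4.10 ± 0.22 and Ms4a1 at 3.85 ± 0.07, and none was bright. The pre-B cell receptor gene Vpreb1 stood at 8.02, 5.96 and 6.79, and Cd79b at 6.05, 6.11 and 6.22. Of 18 myeloid and dendritic markers 14 were at the floor, among them Lyz2 (4.81 ± 0.11), Itgam (4.70 ± 0.23) and Adgre1 (4.24 ± 0.05), and the highest was Ctss at 5.61 ± 0.30.

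Among 17 markers of thymic stroma 8 were at the floor, including Foxn1 (5.22 ± 0.13) and Krt5 (5.02 ± 0.11), while the endothelial and leukocyte gene Pecam1 stood at 7.46 ± 0.27. Of 8 erythroid and platelet markers, Klf1 (4.92 ± 0.13), Pf4 (4.06 ± 0.06) and Ppbp (4.00 ± 0.07) were at the floor and none exceeded 5.78, the level of Slc4a1. Of 10 gamma-delta T cell markers the highest were Cd163l1 (6.55 ± 0.26), Sox4 (6.38 ± 0.15) and Sox13 (6.23 ± 0.16), and Il17a, Il23r and Zbtb16 were at the floor. Of 19 early progenitor genes 11 were intermediate and 8 at the floor. The highest were Erg (7.08, 6.92 and 6.91), Gfi1b (6.27 ± 0.26), Bcl11a (6.22 ± 0.20) and Tal1 (6.20 ± 0.12), and Meis1 (4.77 ± 0.04), Mecom (4.56 ± 0.07) and Cd34 (5.12 ± 0.13) were at the floor. Of 15 genes of DP and mature T cells 6 were at the floor. Ly6d stood at 9.33, 8.79 and 8.74, Klf2 at 6.60 ± 0.06 and Cd40lg at 4.11 ± 0.19. The sum of the linear signals of a list on the wild-type arrays ran from 520 to 574 for the myeloid list, from 1813 to 1879 for NK cells and, with the wider spread, from 504 to 717 for B cells, where replicate 1 with its high Vpreb1 was the highest.

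Of the 10 genes with the widest range over the wild-type arrays, 3 differed by more than 2 log2 units. Cd69, an activation marker, stood at 4.72, 6.71 and 4.52, and Ptgs2, which encodes the prostaglandin synthase COX-2, at 5.20, 7.33 and 5.34. Both were high on replicate 2 alone. Vpreb1 was highest on replicate 1. Macrod2 (5.86, 7.81 and 7.32) and Cetn4 (5.21, 6.84 and 6.53) were low on replicate 1, the array of the smaller set, and Zfp975 (6.41, 4.96 and 4.61) was high on it. The histone genes H2bc4 (5.93, 7.15 and 5.49) and H1f2 (6.97, 8.34 and 6.70) were high on replicate 2, Smndc1 (8.21, 7.77 and 6.62) was lowest on replicate 3 and Tuba3b (5.44, 3.96 and 5.13) lowest on replicate 2. Other early response genes, picked after their values were seen, were less far apart: Rgs2 stood at 7.38, 8.50 and 7.28, Fos at 5.75, 6.43 and 5.63 and Egr1 at 6.16, 6.00 and 6.07. The mean of Cd69, 5.32, lay at the floor, although replicate 2 was intermediate.

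The position in the ranking went with the letters of the promoter, here over the 250 bases before the start. A promoter was found for 15056 of 18604 coding genes (80.9%). Cut into 10 equal groups by level, the median ratio of observed to expected CpG fell from 0.83 in the brightest to 0.16 in the dimmest group. The share with CCGGAAGT or its reverse fell from 7.97% to 0.93%, and the share with TATAAA or its reverse went from 6.11% to 29.0%. Matches were counted anywhere in the 250 bases. The median GC content fell from 61.6% to 40.8% over the same groups, and its part in these shares was not tested. The dimmest group held 547 of the sensory receptor genes. Without those genes, as added after seeing the data, the same ends stood at 0.83 and 0.26 for CpG, 7.99% and 1.57% for CCGGAAGT, and 6.21% and 18.5% for TATAAA. Bright T-lineage genes were less rich in CpG than bright genes as a whole: 20 of 40 with a promoter (50.0%) had a ratio above 0.6, against 1320 of 1612 bright genes (81.9%). Intermediate T-lineage genes were also lower, with 29 of 60 (48.3%) against 64.1% of all intermediate genes. At the floor the shares were 27.8% and 27.1%. No test was made of these differences, and the relation describes array signals.

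**Figure D4:**
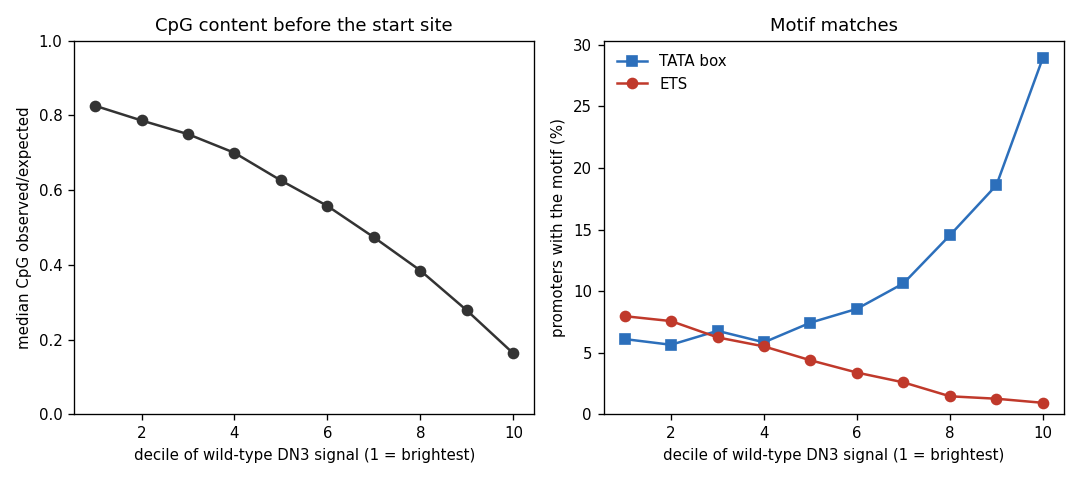
Promoter composition in 10 groups of genes from the brightest (1) to the dimmest (10) in wild-type DN3 thymocytes: median ratio of observed to expected CpG (left) and percent of promoters with the TATA box or ETS letters (right). CpG falls from 0.83 to 0.16 and ETS from 7.97% to 0.93%, while TATA goes from 6.11% to 29.0%. The median GC content, not drawn, falls from 61.6% to 40.8%.

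Set against the other samples of the series, the wild-type DN3 ranking was largely shared at its top. Of the 1994 bright genes, 1821 (91.3%) were also bright in TCF-1 KO DN3 cells and 1819 (91.2%) in the lymphomas, each by its own limits (floor 5.45 and 5.31, bright 7.60 and 7.75). None went from bright to the floor in TCF-1 KO DN3 cells and 5 did in the lymphomas. Each comparison with wild-type DN3 cells was fitted with limma on its own arrays, over 14953 genes, and called at a Benjamini-Hochberg adjusted p under 0.05. The comparisons share the wild-type arrays, so their results are not independent of each other. Xist was not even over the samples: bright on all wild-type arrays, it was at the floor on TCF-1 KO DN3 replicate 3 and on lymphomas 1, 2 and 6. Xist alone does not settle the sex of these animals, and the part of sex in the differences was not tested.

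Of the 5 DN3 markers, Dntt was the 1 called in TCF-1 KO DN3 cells. It stood there at 10.25, 10.30 and 10.18, below every wild-type array, and fell by 0.69 (SE 0.12, limma adjusted p = 0.0176), with differences of -0.50 within the smaller and -0.78 within the larger array set. Without wild-type replicate 2 or 3, or TCF-1 KO replicate 3, the adjusted p was 0.119, 0.0683 and 0.0848. Il2ra stood at 10.61, 10.88 and 10.37, Notch1 at 8.39, 8.79 and 8.41, Ptcra at 7.46, 7.09 and 7.01 and Rag1 at 10.18, 10.15 and 9.93, with adjusted p of 0.705, 0.687, 0.801 and 0.264. The arrays of Il2ra, Notch1 and Ptcra overlapped with the wild-type arrays, and those of Rag1 all lay lower. Such a lack of overlap, in either direction, was seen in 22% of all genes in this comparison. In the lymphomas Rag1 ranged from 7.42 to 9.63 with a median of 8.66 and fell by 1.92 (SE 0.37, limma adjusted p = 0.00824). Dntt ranged from 9.54 to 10.20 with a median of 10.12 and fell by 0.94 (SE 0.15, limma adjusted p = 0.00214). The Rag1 call was lost without wild-type replicate 3 (adjusted p = 0.052) and in the larger array set alone (0.07). Ptcra ranged from 6.17 to 6.95, below all wild-type arrays. In the lymphoma comparison 10.3% of all genes did not overlap with the wild-type arrays, in either direction. Ptcra had a difference of -0.57 and a limma adjusted p of 0.063. It was called with the array set as a term (0.0179) and without lymphoma replicate 5 (0.0427) or 6 (0.0196). Il2ra and Notch1 had differences of -0.35 and -0.35 and adjusted p of 0.236 and 0.286, and Notch1 was called with the array set as a term (0.0298).

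Over all genes, 1.99% were called in TCF-1 KO DN3 cells, 0.568% higher (85 genes) and 1.42% lower (213 genes). That balance turned without wild-type replicate 2 (31 higher, 26 lower) and without TCF-1 KO replicate 3 (68 higher, 58 lower). Of the 498 list genes tested, 27 (5.42%) were called, 17 higher and 10 lower than in wild-type cells. The lists were chosen with earlier results of these data known, so their shares are not independent of these data. The T-lineage and receptor genes made up 18 of them, of 154 tested (11.7%), with a median difference over these 154 of 0.04, against 0.03 over all genes. The replicate numbers of the DN3 groups were taken as pairs, which the labels do not name. With the number as a block 43 of the 154 (27.9%) were called, against 9.23% of all genes. Calls and adjusted p are from the fit without this block unless stated. For 5 list genes (1.0%) the call went with another class, against 0.818% of the 14913 genes ranked and compared by the same row, a share near the background. Cd2, intermediate in wild-type cells, stood at 9.61, 9.45 and 9.59, a rise of 3.94 (SE 0.13, limma adjusted p = 8.03e-08). Ikzf3, the Aiolos gene of the Ikaros family, stood at 5.97, 6.36 and 5.75 in wild-type cells and rose by 1.89 to the bright class. Fyn rose by 0.88 (limma adjusted p = 0.0359), a call lost without any 1 of the wild-type arrays (adjusted p of 0.109 to 0.118), without TCF-1 KO replicate 1 or 2 (0.0707 and 0.0667), in the larger array set alone (0.132) and with no filter on dim genes (0.0514), and kept with the block (0.0014). Kit fell by 0.69 to 5.40, at the floor by the limit of the TCF-1 KO group and just above the wild-type limit, and Cdkn2c rose by 0.96 from the floor to 5.85. Both calls were lost without wild-type replicate 2 (adjusted p = 0.104 for each) or 3 (0.0611 and 0.0602), and that of Kit also without TCF-1 KO replicate 3 (0.0729).

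In the lymphomas 5.82% of all genes were called, 2.96% higher and 2.86% lower (443 and 428 genes). Of the 498 list genes 84 (16.9%) were called, 49 higher and 35 lower, and of the 154 T-lineage and receptor genes 50 (32.5%), 32 higher and 18 lower. Metabolic and ribosomal genes were called at a share near that of all genes, 11 of 178 (6.18%). In 33 list genes (6.63%) the call went with another class, against 2.29% of all genes. Because the lists were chosen with earlier results known, a share above that of all genes is not independent support. Bright in wild-type DN3 cells and intermediate in lymphomas were 11 genes, led by the integrin gene Itga4, which stood at 9.62, 9.72 and 9.65 and fell by 3.58 (SE 0.29). The differences from wild-type cells were -2.32 for Ly6d, -1.91 for Cd48, -1.78 for Ctla4, -1.72 for the cyclin gene Ccnd2, -1.36 for Tgfbr1 and -1.13 for the survival gene Bcl2. Il7r fell by 2.30 (SE 0.46), with lymphomas from 5.67 to 8.26. Ifnar2, Grap2 and Il17ra had differences of -0.77, -0.62 and -0.58.

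Bright in lymphomas and intermediate in wild-type DN3 cells were another 11. Cd2 rose by 4.12, Ikzf3 by 3.31, Pdgfrb, a growth factor receptor gene at 5.81, 5.73 and 6.00 in wild-type cells, by 2.92, and Etv5, a gamma-delta T cell factor in these lists, by 2.51. The E protein inhibitor gene Id2 rose by 2.44, Itm2a by 2.02, Fyn by 1.54, Slamf6 by 1.29, the muscle-type glycolysis gene Pgam2 by 1.27, Cd28 by 1.26 and Dut by 0.42. At the floor in lymphomas and intermediate in wild-type cells were 7 genes: Trat1, Rag2, Epcam, Kit, Cd79b, E2f2 and Nfe2, with differences of -2.15, -1.39, -1.05, -1.03, -0.95, -0.69 and -0.65. From the floor of wild-type cells, Il2rb rose by 0.93, Btla by 0.91, Cdkn2c by 0.65 and Zmat3 by 0.38. All 33 changes of class held when the wild-type limits were used for both groups. The calls of 10 of the 33 were lost under at least 1 alternative. Rag2 was lost without any 1 of the wild-type arrays (adjusted p of 0.069 to 0.0991), Il7r, Trat1, Pgam2 and Cdkn2c without wild-type replicate 2 (0.0593, 0.0514, 0.0513 and 0.0624), and Il7r and Pgam2 without replicate 3 (0.0542 and 0.0608). Dut and Zmat3, both with small differences, lost their calls in 9 and 12 settings, each without any 1 of the wild-type arrays (adjusted p of 0.055 to 0.191 and 0.114 to 0.191). In the larger array set alone 8 of these calls were lost: Rag2 (0.203), Il7r (0.0967), Trat1 (0.0885), Dut (0.0822), Etv5 (0.0792), Il2rb (0.07), Zmat3 (0.0611) and Bcl2 (0.0517).

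**Figure D5:**
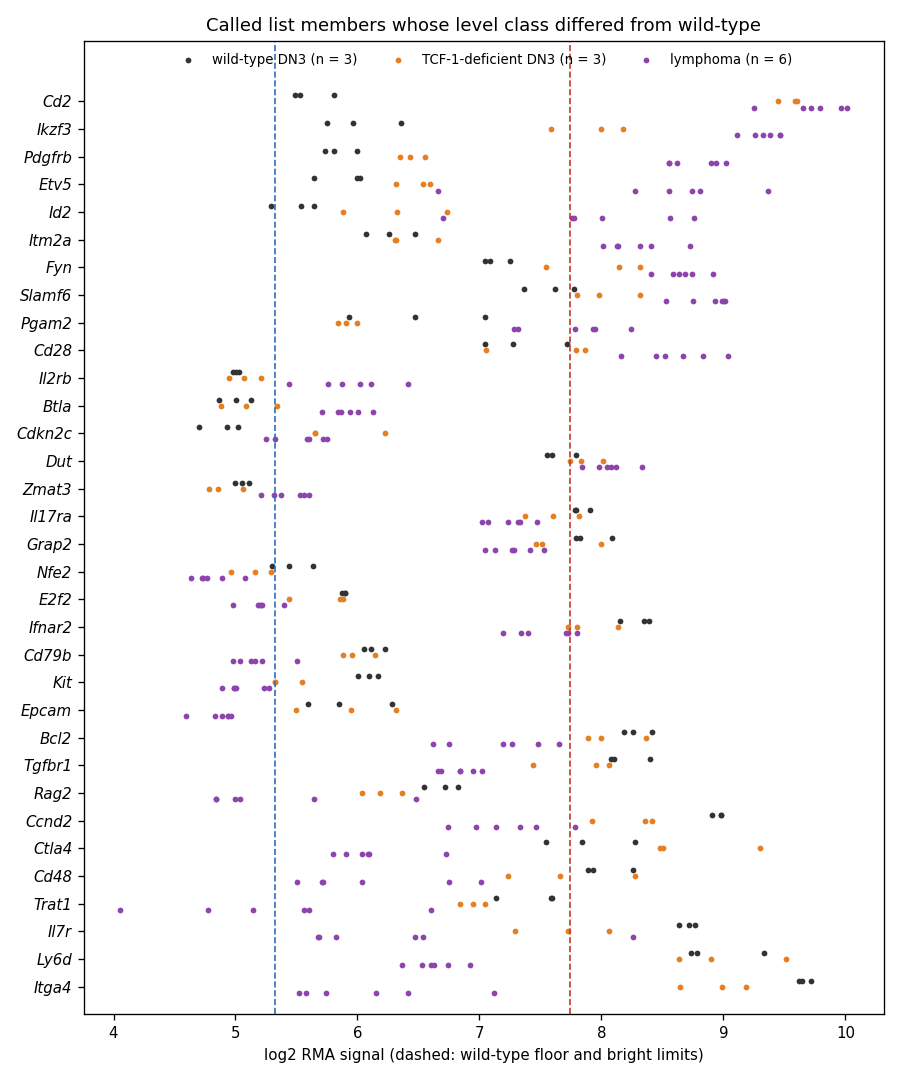
Log2 signals on each array for list genes that were called against wild-type DN3 cells in at least 1 comparison and whose class differed, ordered by the lymphoma difference from the largest rise to the largest fall; black, wild-type DN3 (n = 3), orange, TCF-1 KO DN3 (n = 3), purple, lymphomas (n = 6), with dashed lines at the wild-type limits (5.33 and 7.74). Cd2 stands at 5.61 in wild-type cells and between 9.25 and 10.02 in the other groups, and Itga4 falls from 9.66 to 6.09 in lymphomas.

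Of the 113 measured markers of other cell types and stages, 90 passed the filter on dim genes and were tested. In TCF-1 KO DN3 cells 6 of the 90 (6.67%) were called, 4 higher and 2 lower, against 1.99% of all genes. They were Gzma and Cd163l1, and Kit, Cd8a, Cd8b1 and Il7r, which also stood in the T-lineage and receptor lists and were counted there. In lymphomas 18 (20%) were called, 9 higher and 9 lower, against 5.82% of all genes. Of these, Cd8b1, Il7r, Kit, Id2, Il2rb and Icos also stood in the T-lineage and receptor lists. These markers too were listed with earlier results of these data known. The linear sum over the 10 gamma-delta T cell markers was 544 to 567 on wild-type arrays, 665 to 760 in TCF-1 KO DN3 cells and 800 to 1650 in lymphomas, where Etv5, Cd163l1 and Icos were called higher. That over the 19 early progenitor genes was 917 to 984, 876 to 1016 and 743 to 813, with Kit, Erg and Nfe2 called lower in lymphomas. The linear sum over the 14 NK and innate lymphoid markers was 1813 to 1879 on wild-type arrays, 2456 to 2966 in TCF-1 KO DN3 cells and 2271 to 3331 in lymphomas. Most of it was Gzma, which rose by 0.68 and 0.66 (limma adjusted p = 0.017 and 0.0238). The sum over the 14 B cell markers was 504 to 717, 517 to 554 and 441 to 498, so that the TCF-1 KO range lay within the wild-type one. The myeloid sum was 520 to 574, 589 to 647 and 548 to 623, with Lyz2, Itgam and Adgre1 at the floor in wild-type cells. None of the 12 myeloid and dendritic genes tested was called in either comparison. The enzymes of liver and other tissues, 13 of 16 at the wild-type floor, had sums of 499 to 522, 538 to 573 and 513 to 666. Such sums include the floor signal of the dim members, and a higher sum does not by itself show more RNA. What part other cells had in these differences was not tested, and fewer cells of a type cannot be told apart from less RNA per cell in such samples.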

How the data were processed

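RNA was extracted with Trizol and RNeasy columns, amplified with the NuGEN WT-Ovation Pico system and measured on the Mouse Gene ST array of Affymetrix, per the labels' protocols. The authors deposited log2 signals per array row, made with RMA (background correction, quantile normalisation, probe summary) in Partek, per the submitters' processing notes. The log base was inferred from the range of the values; as to versions and genome build, not given in the sources used here. Quantile normalisation gives all arrays 1 distribution, so differences are relative to the other genes. The number of arrays limits the precision.

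Of 35556 rows, 21789 had 1 gene symbol in the platform annotation, 1621 several and 12146 none; rows with 1 symbol were used. For 999 genes with several rows the row with the highest wild-type mean was ranked (in the comparisons, the highest mean over 12 arrays, another row for 44 genes). Listed genes without a row of their own, and the deleted gene, were not analysed here. Comparisons used limma 3.58.1 in R 4.3.3 (lmFit, eBayes), two-sided and Benjamini-Hochberg adjusted, over genes at or above the 25th percentile of the mean. The fit was tested on simulated data. Figures and counts used Python 3.11.15.

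The genes and the 31 lists were chosen with earlier results of these data known. The text names the 5 markers, the 20 brightest genes, up to 6 brightest and 6 dimmest members per list, called list genes that changed class, the 10 genes with the widest wild-type range and 5 genes on each side of a limit; a few more list members were chosen for naming once values were known. Same-number wild-type and TCF-1 KO DN3 arrays had deviations from the group means that correlated at 0.51, 0.42 and 0.25. All were over 0.1, so the numbers were taken as pairs, which the labels do not name. For the lymphomas the values were 0.44, -0.22 and 0.15, and the numbers were not taken as pairs. Wild-type replicate 1 correlated at 0.45 with lymphoma 2, an array of the same set with another number. For replicate 1 a pairing thus cannot be told apart from the array set. Array sets were found from unnamed rows chosen for a gap between arrays. Alternatives covered the class limits, the row per gene, centring, the filter, the variance model, the replicate block, the array set and each replicate left out.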

Additional observations from a re-analysis of the deposited data

Results flagged for a closer look

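Among 38 genes named in the comparisons, 4 had 1 lymphoma array far from the other 5; chance gives about 1 in 20 groups. Il7r was highest in lymphoma 3, at 8.26, with the next at 6.54, against 8.64 to 8.76 in wild-type DN3 cells. Ctla4 was highest in lymphoma 4, at 6.72, with the next at 6.09. Epcam was lowest in lymphoma 6, at 4.59, with the next at 4.84. Il2ra was lowest in lymphoma 2, at 9.89, with the next at 10.35, against 10.71 to 10.77 in wild-type DN3 cells. The wild-type group has 3 arrays and was too small for this check.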

How the results depend on the processing

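With the floor at the 99th percentile of the sensory receptor genes, 63 T-lineage and receptor genes lay at the floor in place of 28, and with the bright limit at the 95th percentile of genes 29 were bright in place of 48. That limit also left 3 in place of 13 bright genes of S phase, 5 of 14 of the TCA cycle, 4 of 10 of G2 and mitosis and 2 of 6 of glycolysis, but 16 of 21 of the respiratory chain and 27 of 28 ribosomal ones. Floor genes numbered 7232 to 12985 over the floor limits tried. Leaving out 1 wild-type array kept 97.2% to 98.1% of genes in their class and gave 9183 to 9634 floor genes, 46 to 48 bright T-lineage genes and 27 to 29 at the floor. TCF-1 KO DN3 calls, 298 in all, numbered 57 to 443 with 1 replicate left out (57 without wild-type replicate 2, 122 without replicate 1, 154 without replicate 3, 126 without TCF-1 KO replicate 3), 1380 with the replicate number as a block, 754 with the array set as a term and 144 in the larger set alone. Lymphoma calls, 871 in all, numbered 560 to 872 with 1 replicate left out (564, 560 and 570 without wild-type replicate 1, 2 and 3), 863 with the block and 549 in the larger set alone. The balance of higher and lower calls was 31 to 26 without wild-type replicate 2 and 68 to 58 without TCF-1 KO replicate 3, in place of 85 to 213, and for lymphomas 279 to 285 and 269 to 301 without wild-type replicate 1 and 3, 268 to 281 in the larger set alone and 423 to 433 with no filter, in place of 443 to 428. For TCF-1 KO DN3 cells the block changed no call of the 5 markers or of the class-changing genes. For lymphomas, whose numbers were not taken as pairs, the block called Ptcra (-0.81, adjusted p = 0.00303) and lost Dut and Zmat3 (0.062 and 0.247). No called difference of a named gene changed sign; in TCF-1 KO DN3 cells the uncalled ones of Il2ra and Ptcra did, in 1 and 2 settings. The larger set alone and left-out replicates use fewer arrays; the cause of the other changes was not tested. Genes near the floor have compressed differences. The array-set alternatives were added after seeing the data.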
